A study of Mus musculus with 18 samples.

Results

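The genes described here encode the initiation and elongation factors of cytoplasmic translation, with their nearest regulators. They were taken by symbol: initiation factors of the eIF1, eIF2, eIF2B, eIF3, eIF4, eIF5 and eIF6 families and elongation factors of the eEF1 and eEF2 families, with pseudogenes left out. The rule found 51 genes among the 18193 genes with a single symbol on the array. Of these 51, 47 encode factors or their regulators, and 4 encode methyltransferases that modify elongation factors (Eef1akmt1, Eef1akmt2, Eef1aknmt and Eef2kmt). Each gene was represented by the probe set with the highest mean signal, out of 132 probe sets for the 51 genes.

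C57BL/6J mice were the source of the CD23+ splenic B lymphocytes in which RNA was measured; follicular B cells carry CD23, a receptor for IgE. Mice were injected with PF-303, an inhibitor of the kinase BTK, or with vehicle, 2 hours before anti-IgD or PBS, and the cells were harvested 2 hours after that. Anti-IgD binds the B cell receptor, and BTK relays the signal of that receptor. The groups were vehicle then PBS (4 samples), vehicle then anti-IgD (4 samples), PF-303 then PBS (5 samples) and PF-303 then anti-IgD (5 samples), and the comparisons ask what receptor stimulation does to each gene and how much of it remains with the inhibitor. The labels do not say that each sample came from its own mouse, and the p-values then reflect only how far these samples spread, part of which may be technical.

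Translation starts when eIF2, loaded with GTP and the initiator tRNA, joins the small ribosomal subunit together with eIF1, eIF1A, eIF3 and eIF5. The eIF4F complex (the cap-binding eIF4E, the scaffold eIF4G and the helicase eIF4A) brings this assembly to the mRNA cap, and eIF5B then joins the large subunit at the start codon. eIF2B recharges eIF2 with GTP, the eIF4E-binding proteins hold eIF4E away from eIF4G, and eEF1 and eEF2 carry the ribosome along the message. Resting B cells are small and translate little, and enlarge their translation machinery after stimulation through the receptor.

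The values are MAS5 signals as deposited, a linear intensity, and each gene is compared only with itself across samples, since signals of different probe sets have no common scale. Of the 51 genes, 48 passed the filter on weak signals (above 15.2, the median over all arrays, on 4 or more of the 18 arrays) and were tested among 11104 genes in all. Eif2s3y, the Y-linked copy of the eIF2 gamma subunit, Eef2kmt, a methyltransferase of eEF2, and Eif4a3, a helicase of the exon junction complex, did not pass. Several members of the same complexes, among them Eif1, Eif2s1, Eif3g, Eif4g1 and Eef1g, do not stand under a single symbol and were not analysed here. Fold changes are differences of mean log2(signal + 16), which understates changes of weak signals, and adjusted p-values are limma's, over all 11104 genes, called when under 0.05.

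Marker genes of the labelled and of other cell types were read. Sums over different probe sets have no common scale, so each list is compared only between samples and does not give the make-up of the cells. The 5 follicular B cell markers measured (Cd79a, Cd79b, Cr2, Fcer2a and Ms4a1) summed to between 11640 and 30650 signal units per array. The sums were 35.8 to 97.2 for 5 T cell markers and 785 to 2797 for 4 macrophage and monocyte markers. In the vehicle and anti-IgD group the B cell sum was 11640 to 14120, below every sample of the other 3 groups (16270 to 30650), while the T cell and macrophage sums overlapped between groups. Fcer2a, which encodes CD23, read 1543 to 2979, and the T cell genes Cd3e and Cd4 did not pass the filter. Sums over markers of other cells were 8.07 to 39.5 (NK), 76.0 to 845 (neutrophil), 16.7 to 223 (erythroid), 90.3 to 315 (platelet), 56.2 to 92.5 (dendritic) and 3189 to 5581 (plasma cell), overlapping between groups. In 6 arrays the signal of the spike-in controls was 2.36 to 3.95 times the median array. These were 2 of 4 samples of vehicle with PBS, 2 of 5 of PF-303 with PBS, 2 of 5 of PF-303 with anti-IgD and 0 of 4 of vehicle with anti-IgD. The 8 members higher in all 6 of these arrays than in the other arrays of their groups are named with their values. The part of the B cell marker sum in the differences below was not tested. In these bulk samples fewer cells of a type and less RNA per cell cannot be told apart.

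After anti-IgD with vehicle, 18 of the 48 genes rose and 5 fell, against 17.4% of all tested genes that rose and 30.6% that fell. Of the 18, 17 carry symbols of the initiation factor families and 1 is a methyltransferase gene. The median log2 fold change was 0.11 over the 48 genes and -0.13 over all genes tested. The rises were moderate: 4 genes (Eif1a, Eif2b3, Eif4e and Eif1ad) rose at least 2-fold. By role, 5 of 7 genes placed with the start-site and subunit-joining factors rose, 2 of 2 eIF2 subunits, 3 of 5 eIF2B subunits and 4 of 11 eIF3 subunits. Of 9 genes placed with eIF4F and its helpers, 3 rose. Genes were placed by symbol. The 5 include Eif1ad, whose product is nuclear, and the 3 include Eif4e2, whose product works mainly as a repressor. None of 3 eIF4E-binding proteins and neither of the 2 eIF5A genes was called, and of the 6 elongation factors and their kinase 2 fell. The description of each sample holds a position code. Where the row of that code as a block ended a call among the 48 genes, the value is given beside it. Rows and groups partly coincide: vehicle with anti-IgD lies in rows C, D and E, and vehicle with PBS in rows B, C, F and G. Vehicle with anti-IgD also shares only row C with PF-303 and anti-IgD. In that fit, row and treatment can therefore not be fully told apart.

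Most of these factors also rose in mice that had received PF-303. Anti-IgD raised 16 of the 48 genes and lowered 3 in PF-303-treated mice, where 14.7% of all genes tested rose and 19.1% fell, and the median over the 48 was 0.13 against -0.055 over all genes. Of the 18 genes that rose with vehicle, 15 also rose with PF-303, and 14 had the smaller log2 fold change with PF-303. The log2 fold change with PF-303 was between 30.5% (Eif1ad) and 119% (Eif2b5) of that with vehicle over these 18, with a median of 64.1%. The 2 responses share no control samples, but the 18 genes were picked by their rise with vehicle, which by itself favours a smaller second value.

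**Figure D1:**
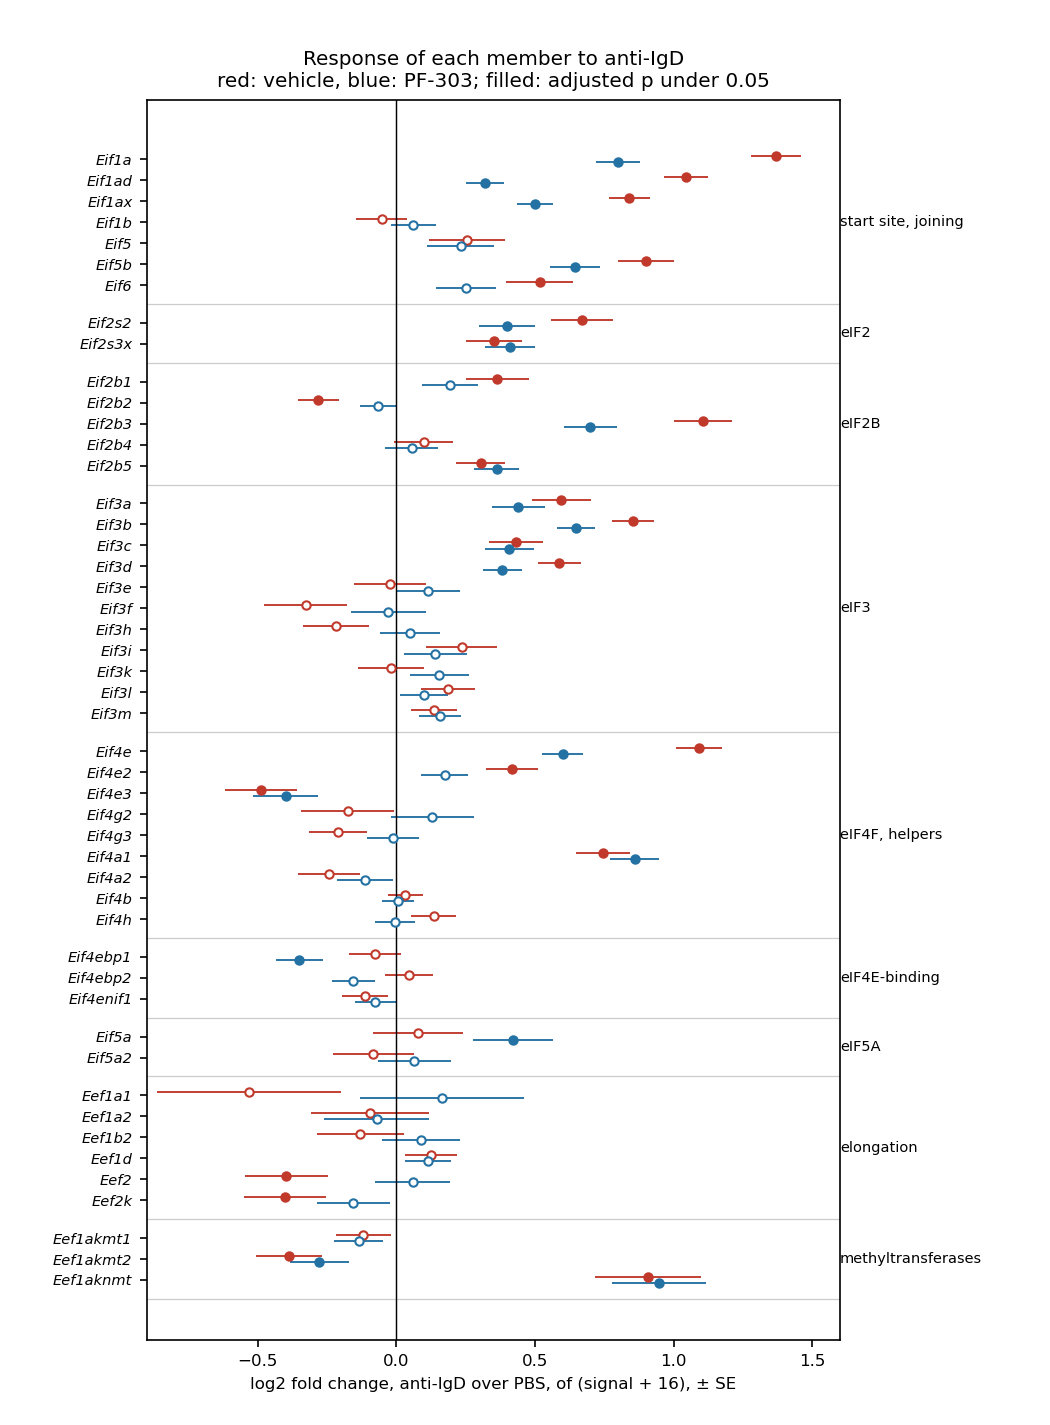
Log2 fold change of anti-IgD over PBS for each of the 48 genes, with vehicle (red) and with PF-303 (blue), grouped by role; bars are standard errors and filled points have an adjusted p under 0.05. Eif1a has the highest red point at 1.37 and its blue point at 0.80, while the points of the elongation factors lie around and below 0.

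Where stimulated cells with and without PF-303 were compared directly, 10 of the 48 genes were lower with PF-303 and 2 were higher, against 10.4% and 19.8% of all genes tested. These 10 are among the 18 risers; both comparisons use the vehicle and anti-IgD samples, so this overlap is no separate result. In unstimulated mice PF-303 changed none of the 48 genes (limma, 0 higher and 0 lower), where 0.072% of all genes were higher and 0.675% lower. At an unadjusted p under 0.05, 2 of the 48 were higher and 7 lower there. The share of all genes tested at this unadjusted cut was not computed, so these counts have no background beside them. The test of the difference between the 2 responses called 4 genes with a smaller response under PF-303 and none with a larger one, against 3.12% and 6.66% of all genes tested. At an unadjusted p under 0.05 these counts were 6 and 2, again without a share over all genes at that cut.

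One sequence feature was searched near the start sites of the members: the E-box hexamer CACGTG, which reads the same on both strands and is the binding motif of MYC and related factors. RefSeq promoter windows (mouse build GRCm38.p6, from 250 bases before to 50 after each start) were found for 40 of the 51 genes, and 12 of the 40 (30.0%) held the hexamer in at least 1 window. The share was 12.0% over 9036 tested genes with a window and 8.09% over all 27025 genes of the table. Genes differ in the number of windows, and no test was made. Among members that rose with anti-IgD and vehicle 4 of 15 held it (Eef1aknmt, Eif3a, Eif4a1 and Eif4e), among those that fell 2 of 4 (Eef2 and Eef2k), and among those not called 6 of 18, which are shares of 26.7%, 50.0% and 33.3%. The stretches below show it, in capitals, in the members called with anti-IgD and vehicle that carry it before the start. They have 20 bases on either side and read 5′ to 3′ on the strand of the gene.
Eif4e, 228 bases before the start, chr3:138527020-138527065, plus strand: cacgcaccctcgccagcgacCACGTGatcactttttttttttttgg
Eif4e, 64 bases before the start, chr3:138527184-138527229, plus strand: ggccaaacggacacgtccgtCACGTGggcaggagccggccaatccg
Eif4a1, 189 bases before the start, chr11:69672587-69672632, minus strand: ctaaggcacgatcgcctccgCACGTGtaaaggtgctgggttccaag
Eef1aknmt, 147 bases before the start, chr1:162548467-162548512, minus strand: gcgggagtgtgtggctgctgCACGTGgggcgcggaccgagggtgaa
Eef2, 43 bases before the start, chr10:81176568-81176613, plus strand: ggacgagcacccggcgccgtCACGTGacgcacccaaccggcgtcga
Eef2k, 31 bases before the start, chr7:120842780-120842825, plus strand: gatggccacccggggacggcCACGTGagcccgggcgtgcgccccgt
Eif4e has 2 copies in 1 window. In Eif3a the hexamer lies 22 bases after the start. Eif1b and Eif5a, called only in other contrasts, also carry it before the start and are not shown. The match describes these letters and says nothing of binding in these cells.

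Start-site and joining factors, with Eif1ad counted among them by symbol, had a median log2 fold change of 0.84 with vehicle. eIF1A, which holds the scanning ribosome open and places the initiator tRNA, is encoded by Eif1a and by the X-linked Eif1ax, whose transcripts are alike enough that a probe set may bind both, and this was not tested. The values of each sample follow in the order of the replicate numbers, vehicle groups first. The Eif1a signal was 322, 348, 269.9 and 302 with PBS and 751, 916, 758 and 886 with anti-IgD in vehicle-treated mice. Under PF-303, Eif1a read 289, 317, 263, 275 and 306 with PBS and 523, 555, 502, 465 and 539.7 with anti-IgD. The stimulated samples lay above all unstimulated ones in both arms, and every stimulated sample with PF-303 lay below every one without it. Eif1a rose 2.58-fold with vehicle (log2 fold change 1.37, SE 0.089, adjusted p = 4.5e-11) and 1.74-fold with PF-303 (log2 fold change 0.80, SE 0.080, adjusted p = 5.9e-08). The responses differed by -0.57 (SE 0.12, adjusted p = 0.0044), and the stimulated level was 0.633 times that without the drug (adjusted p = 4.2e-06). In unstimulated mice Eif1a did not differ between PF-303 and vehicle beyond the spread (log2 difference -0.092, 95% interval -0.27 to 0.084). Its other probe set rose by 1.14 with vehicle and 0.76 with PF-303. At that probe set the responses differed by -0.39, which was not called (adjusted p = 0.06 over all probe sets).

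Eif1ax moved the same way over a smaller range. The Eif1ax signal was 622, 630.4, 611 and 609 with PBS and 1020, 1190, 1098 and 1177 with anti-IgD in vehicle-treated mice. Under PF-303, Eif1ax read 637, 623, 612, 659 and 592 with PBS and 894, 903, 999, 847 and 817 with anti-IgD. No stimulated sample overlapped an unstimulated one, and the stimulated samples with PF-303 all lay below those with vehicle. The rise was 1.79-fold with vehicle (log2 fold change 0.84, SE 0.073, adjusted p = 3.6e-09) and 1.42-fold with PF-303 (log2 fold change 0.50, SE 0.065, adjusted p = 2.6e-06). The difference between these rises was -0.34 (SE 0.098, adjusted p = 0.031); it was not called when any 1 of 6 arrays was left out (anti-IgD with vehicle replicates 2 and 5, PF-303 with PBS replicates 1 and 4, PF-303 with anti-IgD replicates 4 and 5, adjusted p 0.05 to 0.07), and with the 6 high spike-in arrays left out it was 0.059. The Eif1ax difference was not called with the position row as a block either (-0.44, adjusted p = 0.087).

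Eif1ad, which encodes a nuclear protein with an eIF1A-like domain, had the smallest remainder under PF-303. The Eif1ad signal was 212, 234, 228 and 205 with PBS and 453, 438, 458 and 537 with anti-IgD in vehicle-treated mice. Under PF-303, Eif1ad read 257, 224, 239.5, 231 and 256 with PBS and 283, 296, 318, 299.5 and 329.6 with anti-IgD. Stimulated samples with vehicle all exceeded those with PF-303, which in turn exceeded all unstimulated samples. The rise was 2.06-fold with vehicle (log2 fold change 1.05, SE 0.079, adjusted p = 4.0e-10) and 1.25-fold with PF-303 (log2 fold change 0.32, SE 0.070, adjusted p = 0.0011), a difference of -0.73 (SE 0.11, adjusted p = 2.3e-04). The second Eif1ad probe set did not show this: its log2 fold change with vehicle was 0.18 (adjusted p = 0.28 over all probe sets), and the difference between responses was 0.029. At the probe set used, the rise of Eif1ad under PF-303 was not called with the position row as a block (0.22, adjusted p = 0.057).

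Eif5b encodes the GTPase that joins the large ribosomal subunit. The Eif5b signal was 296, 282, 293 and 322 with PBS and 602, 501, 581 and 602 with anti-IgD in vehicle-treated mice. Under PF-303, Eif5b read 251, 264, 223, 246 and 301 with PBS and 518, 371, 382, 379 and 408 with anti-IgD. Stimulated samples exceeded unstimulated ones in both arms, and the stimulated groups overlapped through 1 PF-303 sample at 518. Eif5b rose 1.87-fold with vehicle (adjusted p = 1.6e-07) and 1.56-fold with PF-303 (adjusted p = 6.7e-06), and stimulated cells held less of it with PF-303 (log2 fold change -0.47, SE 0.095, adjusted p = 6.8e-04). That last call was lost with the position row as a block (-0.33, adjusted p = 0.1). The difference between responses was not called at this probe set (-0.26, adjusted p = 0.25), and was -0.53 at a second one (adjusted p = 0.018 over all probe sets). Eif6, whose product keeps the ribosomal subunits apart, rose 1.43-fold with vehicle (log2 fold change 0.52, SE 0.12, adjusted p = 0.0012). Its log2 fold change with PF-303 was 0.25 (95% interval 0.028 to 0.48, adjusted p = 0.078), and 0.34 with the high spike-in arrays left out (adjusted p = 0.002). A weaker Eif6 probe set gave 0.34 with vehicle and -0.23 with PF-303 (adjusted p = 0.016 and 0.085 over all probe sets). The difference between responses was -0.58 there (adjusted p = 0.022), -0.42 by the mean of the probe sets (adjusted p = 0.0084) and -0.265 at the set used (adjusted p = 0.34).

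**Figure D2:**
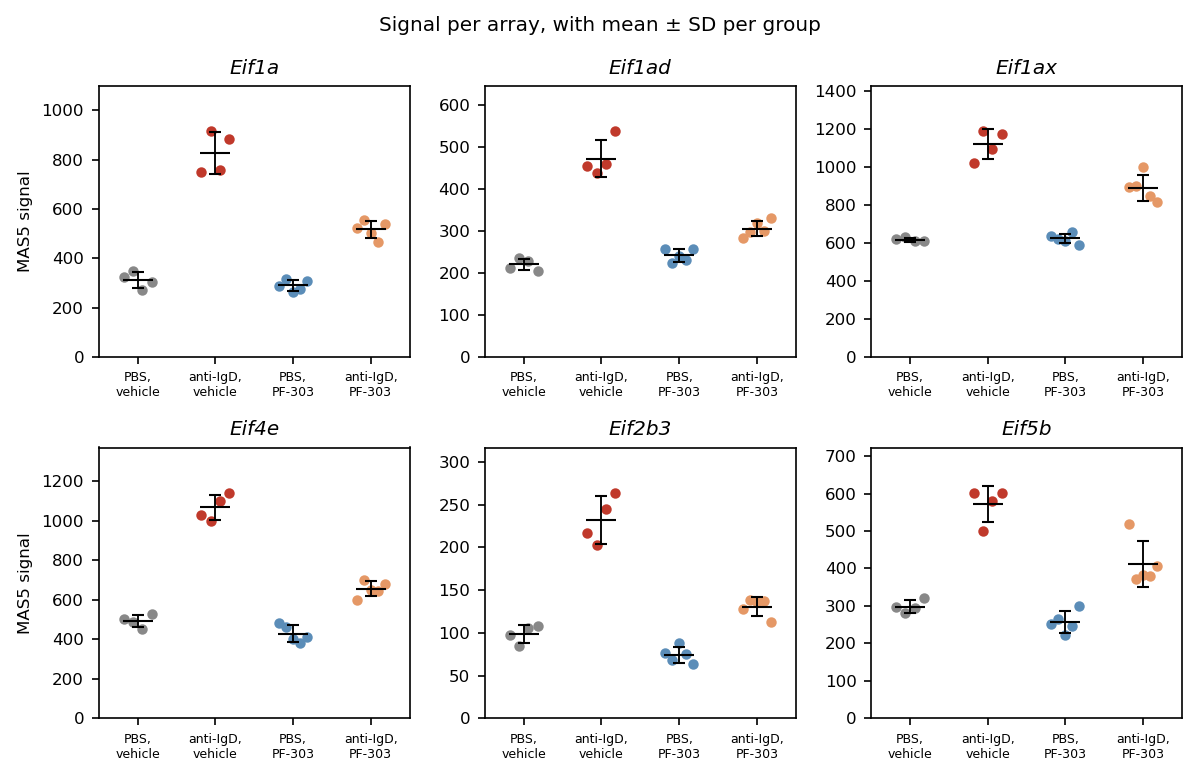
MAS5 signal of each array for 6 genes that rose with anti-IgD; points are samples, and the dash and bars are the group mean and SD (n = 4 for vehicle groups, 5 for PF-303 groups). In Eif1a, Eif1ad, Eif1ax, Eif4e and Eif2b3 the anti-IgD samples with PF-303 lie between the unstimulated samples and the anti-IgD samples with vehicle; in Eif5b 1 PF-303 sample, at 518, reaches into the vehicle range.

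Eif1b and Eif5 completed this role. Eif1b encodes a close relative of eIF1, the factor that guards start-codon selection. The Eif1b signal was 696, 736, 698 and 538 with PBS and 615, 659.8, 638 and 639.7 with anti-IgD in vehicle-treated mice. Under PF-303, Eif1b read 834, 756, 811, 848 and 769 with PBS and 721, 832, 864, 960.3 and 829.5 with anti-IgD. Every PF-303 sample exceeded every vehicle sample of the same stimulation. Eif1b was 1.31-fold higher with PF-303 in stimulated mice (log2 fold change 0.39, SE 0.087, adjusted p = 0.0017); in unstimulated mice the log2 difference was 0.27 (95% interval 0.090 to 0.45), with an adjusted p of 0.19. The Eif1b call in stimulated mice was lost with the position row as a block (0.31, adjusted p = 0.11). Eif5, the GTPase-activating partner of eIF2, had a log2 fold change of 0.26 with anti-IgD and vehicle (adjusted p = 0.13) at the probe set used, and of 0.28 to 0.70 at its 4 other probe sets, all of which were called.

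Both measured eIF2 subunits rose. eIF2 delivers the initiator tRNA, and Eif2s2 encodes its beta subunit. The Eif2s2 signal was 1588, 1623, 2109 and 1534 with PBS and 2615, 2830, 2545 and 2871 with anti-IgD in vehicle-treated mice. Under PF-303, Eif2s2 read 1638, 1559, 1945, 1697 and 1432 with PBS and 1985, 2188, 2614, 2192 and 1956 with anti-IgD. Stimulated and unstimulated samples were separate in both arms, while the stimulated groups overlapped in 1 PF-303 sample at 2614. Eif2s2 rose 1.59-fold with vehicle (log2 fold change 0.67, SE 0.11, adjusted p = 4.0e-05) and 1.32-fold with PF-303 (log2 fold change 0.40, SE 0.10, adjusted p = 0.0038). Its stimulated level was lower with PF-303 (log2 fold change -0.32, SE 0.11, adjusted p = 0.03), a call lost in 4 fits that each left out 1 array (anti-IgD with vehicle replicates 2 and 5, PF-303 with anti-IgD replicates 1 and 5, adjusted p 0.066 to 0.082).

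Eif2s3x encodes the gamma subunit, which binds GTP and the tRNA. The Eif2s3x signal was 1451, 1585, 1366 and 1842 with PBS and 1947, 1967, 1895 and 2137 with anti-IgD in vehicle-treated mice. Under PF-303, Eif2s3x read 1528, 1350, 1538, 1229 and 1500 with PBS and 2229, 1856, 1866, 1756 and 1804 with anti-IgD. Every stimulated sample exceeded every unstimulated one of its arm, and the 2 stimulated groups overlapped. The rise was 1.28-fold with vehicle (log2 fold change 0.35, SE 0.10, adjusted p = 0.0063) and 1.33-fold with PF-303 (log2 fold change 0.41, SE 0.091, adjusted p = 0.0012), and PF-303 made no called difference in stimulated cells (95% interval -0.27 to 0.13). Eif2s3x was not called with vehicle once the position row was a block (0.33, adjusted p = 0.1). Its Y-linked copy Eif2s3y read 0.306 to 13.4 over all 18 arrays, below the filter.

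The 5 subunits of eIF2B, the exchange factor that reloads eIF2, did not move as 1 unit: 3 rose, 1 fell and 1 was not called. Eif2b3, the gamma subunit, had the largest rise. The Eif2b3 signal was 97.3, 85.1, 105 and 108 with PBS and 216, 203, 245 and 264 with anti-IgD in vehicle-treated mice. Under PF-303, Eif2b3 read 76.7, 68.0, 88.4, 75.6 and 63.9 with PBS and 129, 138, 137, 138 and 112 with anti-IgD. The stimulated groups did not overlap with each other or with the unstimulated samples. Eif2b3 rose 2.15-fold with vehicle (log2 fold change 1.11, SE 0.11, adjusted p = 1.6e-08) and 1.62-fold with PF-303 (log2 fold change 0.70, SE 0.095, adjusted p = 4.3e-06), and its stimulated level with PF-303 was 0.593 times that with vehicle (log2 fold change -0.75, SE 0.10, adjusted p = 6.6e-06). The difference between the responses was -0.41 with an adjusted p of 0.073. In unstimulated mice the log2 difference with PF-303 was -0.35 (adjusted p = 0.13).

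Among the other eIF2B subunits, Eif2b2 (beta) fell. The Eif2b2 signal was 564, 558, 560.3 and 546 with PBS and 430, 462, 452 and 477 with anti-IgD in vehicle-treated mice. Under PF-303, Eif2b2 read 500.3, 555, 503, 552 and 539.7 with PBS and 521, 500.1, 584, 468 and 463 with anti-IgD. The vehicle groups were separate and the PF-303 groups overlapped. Eif2b2 fell to 0.822 times its level with vehicle (log2 fold change -0.28, SE 0.074, adjusted p = 0.0029) and had a log2 fold change of -0.065 with PF-303 (95% interval -0.20 to 0.072). Its other probe sets gave -0.11, not called, and -0.52 with vehicle (adjusted p = 0.63 and 0.02 over all probe sets). Eif2b1 (alpha) rose 1.29-fold and Eif2b5 (epsilon, the catalytic subunit) 1.23-fold with vehicle (adjusted p = 0.011 and 0.0072), with overlapping groups in both. With the 6 high spike-in arrays left out the Eif2b1 log2 fold change was 0.22 (adjusted p = 0.11). Neither the rise of Eif2b1 (0.23, adjusted p = 0.28) nor the fall of Eif2b2 (-0.26, adjusted p = 0.074) was called with the position row as a block. For Eif2b4 (delta) the 95% interval was -0.12 to 0.32.

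eIF3, the large scaffold that keeps the ribosomal subunits apart and links them to eIF4F, split into a group of 4 subunits that rose (Eif3a, Eif3b, Eif3c and Eif3d) and 7 that were not called (Eif3e, Eif3f, Eif3h, Eif3i, Eif3k, Eif3l and Eif3m). The Eif3b signal was 476, 478, 525 and 489 with PBS and 886, 814, 914 and 1002 with anti-IgD in vehicle-treated mice. Under PF-303, Eif3b read 386, 426, 415, 415 and 405 with PBS and 585, 719, 676, 654 and 625 with anti-IgD. All 4 groups were separate from each other. Eif3b, a core subunit with an RNA recognition motif, rose 1.81-fold with vehicle (log2 fold change 0.85, SE 0.076, adjusted p = 5.3e-09) and 1.57-fold with PF-303 (log2 fold change 0.65, SE 0.068, adjusted p = 1.2e-07). Its level with PF-303 was lower in stimulated mice (log2 fold change -0.46, SE 0.072, adjusted p = 4.2e-05), and the log2 difference in unstimulated mice was -0.26 with an adjusted p of 0.12.

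Eif3a, the largest subunit, rose from 2805 ± 145 (SD, n = 4) to 4259 ± 423 (SD, n = 4) with vehicle and from 2588 ± 169 (SD, n = 5) to 3534 ± 458 (SD, n = 5) with PF-303. Eif3d, a subunit that can itself bind the cap, rose from 962 ± 76.6 (SD, n = 4) to 1451 ± 63.4 (SD, n = 4) and from 852 ± 62.8 (SD, n = 5) to 1113 ± 60.0 (SD, n = 5), with no overlap between stimulated samples with and without PF-303. Eif3c, the core partner of Eif3a, rose from 1908 ± 294 (SD, n = 4) to 2558 ± 144 (SD, n = 4) and from 1813 ± 128 (SD, n = 5) to 2406 ± 115 (SD, n = 5). These are log2 fold changes of 0.60, 0.59 and 0.43 with vehicle and 0.44, 0.38 and 0.41 with PF-303, each with an adjusted p of 0.00097 or less. In stimulated mice PF-303 lowered Eif3d (log2 fold change -0.38, SE 0.074, adjusted p = 4.8e-04) and Eif3a (log2 fold change -0.27, SE 0.10, adjusted p = 0.046), the latter at the edge of the threshold and not called when any 1 of 11 arrays was left out (adjusted p 0.05 to 0.14). That Eif3a call was also lost with the position row as a block (-0.26, adjusted p = 0.23), with arrays shifted to one median (-0.28, adjusted p = 0.064) and with the high spike-in arrays left out (-0.21, adjusted p = 0.14). The 3 other Eif3a probe sets were all called, at -0.36 to -0.53. Eif3c was not called there (-0.088, adjusted p = 0.53), and 1 of its 4 probe sets was (-0.56, adjusted p = 0.045 over all probe sets).

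The 7 eIF3 subunits that were not called had log2 fold changes with vehicle from -0.33 (Eif3f) to 0.24 (Eif3i). For Eif3e the 95% interval was -0.29 to 0.25 and for Eif3m -0.035 to 0.31, both of which leave out the rise of Eif3b. For Eif3f the interval was -0.64 to -0.015. The signals of Eif3e, Eif3f and Eif3h were higher in all 6 arrays of high spike-in signal than in the other arrays of their groups, by ratios of 1.25, 1.31 and 1.19. Without those arrays the Eif3f log2 fold change was -0.15 with vehicle (adjusted p = 0.25), and it was higher with PF-303 in stimulated mice (0.25, adjusted p = 0.047). In that fit Eif3l was called higher with vehicle (0.23, adjusted p = 0.02), and Eif3k (0.27), Eif3l (0.19) and Eif3m (0.24) were called higher with anti-IgD under PF-303. Eif3l was also called with vehicle under the replicate block (0.24, adjusted p = 0.043) and by the mean of its probe sets (0.22, adjusted p = 0.034). After quantile normalization Eif3f (-0.15) and Eif3h (-0.28) were called lower with vehicle, so the count of 7 uncalled subunits depended on the setting.

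Of the 3 genes of the cap-binding family placed with eIF4F, Eif4e and Eif4e2 rose with anti-IgD and vehicle, and Eif4e3 fell. Eif4e encodes the cap-binding protein whose supply is classed as limiting for initiation. The Eif4e signal was 501, 489, 451 and 529.9 with PBS and 1031, 997, 1098 and 1142 with anti-IgD in vehicle-treated mice. Under PF-303, Eif4e read 483, 464, 401, 379 and 412 with PBS and 601, 700.4, 649.5, 644 and 679 with anti-IgD. Stimulated samples were separate from unstimulated ones in both arms and from each other between arms. Eif4e rose 2.13-fold with vehicle (log2 fold change 1.09, SE 0.082, adjusted p = 3.8e-10) and 1.52-fold with PF-303 (log2 fold change 0.60, SE 0.073, adjusted p = 1.1e-06), a difference of -0.49 (SE 0.11, adjusted p = 0.0068). Stimulated cells held 0.619 times as much Eif4e RNA with PF-303 as with vehicle (adjusted p = 8.7e-07). Its other 2 probe sets rose by 1.12 and 0.93 with vehicle and were lower with PF-303 in stimulated cells, at -0.73 and -0.74. At these sets the responses differed by -0.64 and -0.62 (adjusted p = 0.046 and 0.065 over all probe sets), the latter not called.

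Eif4e2 encodes a cap-binding relative that works mainly as a repressor. The Eif4e2 signal was 321, 349, 331 and 239 with PBS and 412, 389, 427 and 431 with anti-IgD in vehicle-treated mice. Under PF-303, Eif4e2 read 319, 336, 319, 328 and 315 with PBS and 326, 383, 416, 366 and 348 with anti-IgD. The vehicle groups were separate, and the PF-303 groups overlapped through 1 stimulated sample at 326. It rose 1.33-fold with vehicle (log2 fold change 0.42, SE 0.094, adjusted p = 8.8e-04) and had a log2 fold change of 0.17 with PF-303 (95% interval -0.001 to 0.35). The other 4 probe sets of Eif4e2 gave 0.030 to 0.20 with vehicle, none called, and the mean of all 5 gave 0.17 (adjusted p = 0.087).

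Eif4e3 encodes a further cap-binding relative with an atypical cap pocket. The Eif4e3 signal was 117, 113, 150.1 and 114 with PBS and 93.4, 93.8, 78.9 and 67.4 with anti-IgD in vehicle-treated mice. Under PF-303, Eif4e3 read 138, 109.7, 158, 142 and 102 with PBS and 92.3, 78.1, 99.3, 106 and 93.9 with anti-IgD. Stimulated samples were lower, with no overlap in the vehicle arm and a slight overlap in the PF-303 arm. Eif4e3 fell to 0.712 times its level with vehicle (log2 fold change -0.49, SE 0.13, adjusted p = 0.0034) and to 0.758 times with PF-303 (log2 fold change -0.40, SE 0.12, adjusted p = 0.01). With the high spike-in arrays left out these were -0.41 (adjusted p = 0.026) and -0.29 (adjusted p = 0.12). The fall of Eif4e3 with vehicle was not called with the position row as a block (-0.39, adjusted p = 0.092). A second Eif4e3 probe set gave -0.335 with vehicle, not called, and -0.48 with PF-303 (adjusted p = 0.057 and 0.0053 over all probe sets).

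The helicase genes also differed. Eif4a1 encodes the main eIF4A, which unwinds the leader of the mRNA. The Eif4a1 signal was 2063, 2214, 2406 and 2518 with PBS and 3875, 4018, 3489 and 4073 with anti-IgD in vehicle-treated mice. Under PF-303, Eif4a1 read 1958, 1688, 2068, 1998 and 1845 with PBS and 3651, 3379, 3936, 3305 and 3144 with anti-IgD. Stimulated samples exceeded unstimulated ones in both arms, and the stimulated groups overlapped. Eif4a1 rose 1.68-fold with vehicle (log2 fold change 0.75, SE 0.098, adjusted p = 1.6e-06) and 1.81-fold with PF-303 (log2 fold change 0.86, SE 0.088, adjusted p = 7.9e-08), and PF-303 made no called difference in stimulated cells (log2 fold change -0.15, 95% interval -0.34 to 0.042, adjusted p = 0.24). That last value depended on the probe set: the 2 other probe sets of Eif4a1 gave -0.43 and -0.54 (adjusted p = 0.003 and 2.9e-05 over all probe sets). The larger rise with PF-303 was not seen at these 2 sets. They rose by 1.08 and 1.07 with vehicle and by 0.85 and 0.745 with PF-303. Their differences between responses were not called (adjusted p = 0.38 and 0.082 over all probe sets). The probe set used was also higher in all 6 arrays of high spike-in signal, by a ratio of 1.14. Without those arrays its value for PF-303 in stimulated cells was -0.24 (adjusted p = 0.031). In unstimulated mice the log2 difference with PF-303 was -0.265 (95% interval -0.46 to -0.072, adjusted p = 0.26). It was called after quantile normalization (-0.28, adjusted p = 0.0042) and with the spike-in signal as a covariate (-0.25, adjusted p = 0.027).

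Eif4a2 encodes the second eIF4A. The Eif4a2 signal was 3316, 4024, 3991 and 4094 with PBS and 3242, 3404, 2758 and 3637 with anti-IgD in vehicle-treated mice. Under PF-303, Eif4a2 read 3854, 3212, 4006, 4223 and 3708 with PBS and 3531, 3513, 3879, 3126 and 3482 with anti-IgD. Groups overlapped in both arms. The log2 fold change was -0.24 with vehicle (95% interval -0.48 to -0.011, adjusted p = 0.079) and -0.11 with PF-303 (adjusted p = 0.43); the first interval leaves out the rise of Eif4a1.

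Of the scaffold genes, Eif4g2 encodes a truncated relative of eIF4G that does not bind eIF4E, and Eif4g3 a full-length one. The Eif4g2 signal was 3976, 4496, 4754 and 5999 with PBS and 4293, 4689, 3356 and 4619 with anti-IgD in vehicle-treated mice. Under PF-303, Eif4g2 read 4602, 3976, 5983, 5942 and 4142 with PBS and 6062, 5129, 6628, 4427 and 4621 with anti-IgD. The 6 arrays of high spike-in signal lay above the others of their groups, by a ratio of 1.34. No contrast was called for Eif4g2 (with vehicle, log2 fold change -0.18, 95% interval -0.52 to 0.17, adjusted p = 0.41).

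The Eif4g3 signal was 663, 603, 617 and 853 with PBS and 595, 575, 583 and 579.6 with anti-IgD in vehicle-treated mice. Under PF-303, Eif4g3 read 590.2, 591, 614, 558 and 639 with PBS and 731, 566, 495, 623 and 571 with anti-IgD. The vehicle groups did not overlap, with 1 PBS sample apart at 853, and the difference was not called (log2 fold change -0.21, 95% interval -0.43 to 0.005, adjusted p = 0.1). The helpers of eIF4A, Eif4b and Eif4h, were not called in any contrast, with 95% intervals for anti-IgD with vehicle of -0.10 to 0.17 and -0.032 to 0.30.

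**Figure D3:**
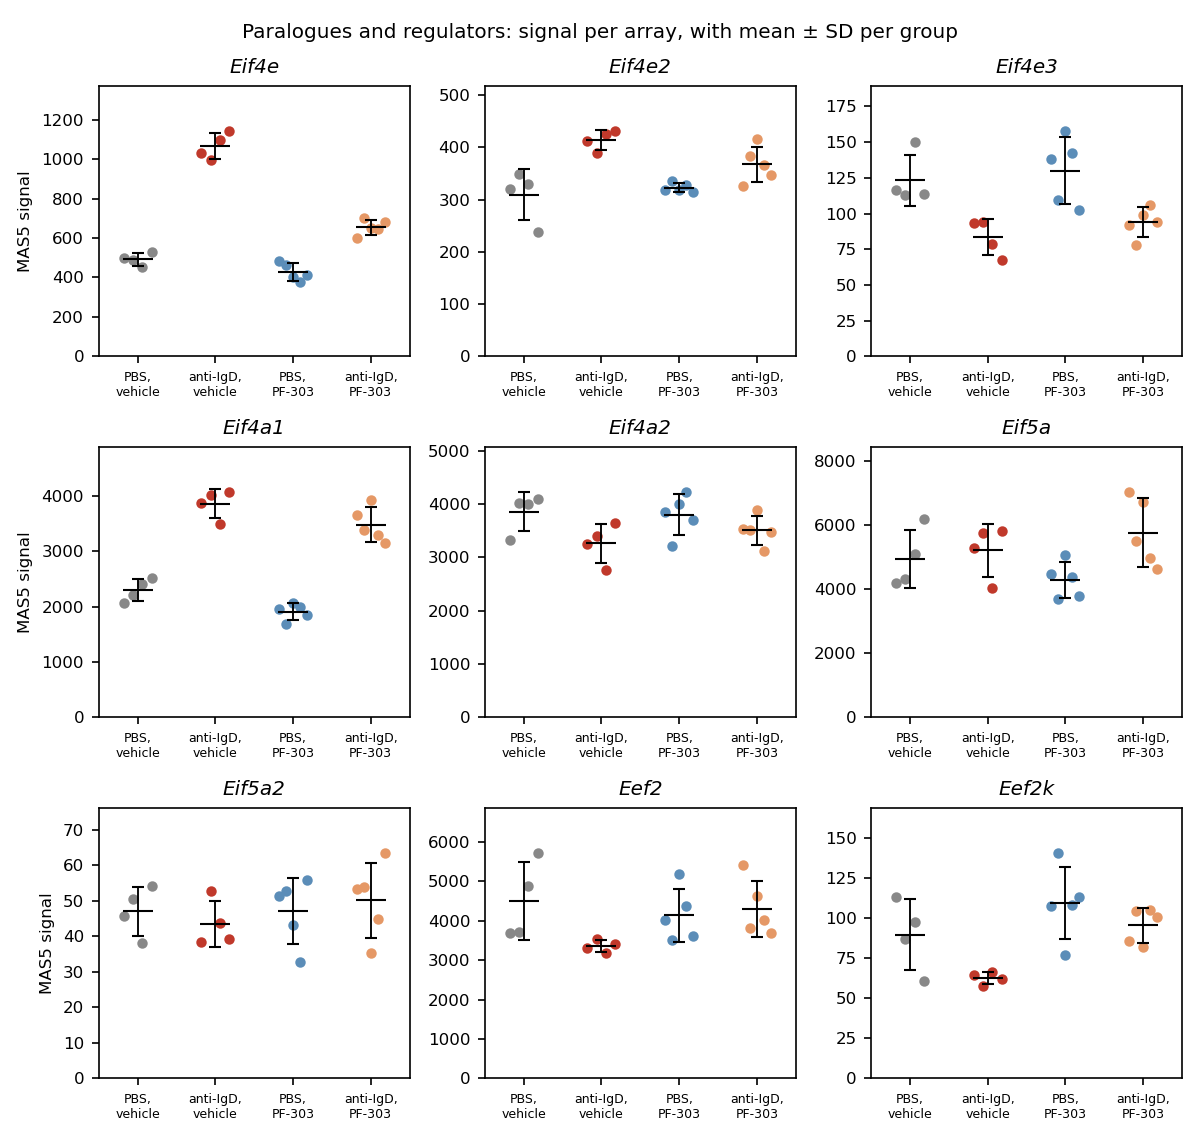
MAS5 signal of each array for related genes; points are samples, and the dash and bars are the group mean and SD (n = 4 for vehicle groups, 5 for PF-303 groups). Eif4e and Eif4a1 rise with anti-IgD in both arms, Eif4e3 falls, and the groups of Eif4a2 and Eif5a2 overlap.

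The eIF4E-binding proteins, which block cap-dependent initiation until they are phosphorylated, were mostly not called. The Eif4ebp1 signal was 259, 252, 229 and 214 with PBS and 241, 217, 217 and 223 with anti-IgD in vehicle-treated mice. Under PF-303, Eif4ebp1 read 282, 285, 259.6, 299 and 260.4 with PBS and 178, 199, 253, 238 and 208 with anti-IgD. The vehicle groups overlapped, and with PF-303 every stimulated sample was lower. Eif4ebp1 fell to 0.784 times its level with anti-IgD under PF-303 (log2 fold change -0.35, SE 0.084, adjusted p = 0.0023), and its log2 fold change with vehicle was -0.079 (95% interval -0.27 to 0.12). The responses did not differ beyond the threshold (-0.27, adjusted p = 0.19), and the 2 other probe sets gave -0.046 and 0.084 under PF-303, neither called. The mean of all Eif4ebp1 probe sets gave -0.10 there (adjusted p = 0.4).

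The Eif4ebp2 signal was 517, 550.3, 548 and 447 with PBS and 598, 483, 491 and 559 with anti-IgD in vehicle-treated mice. Under PF-303, Eif4ebp2 read 549.7, 520, 547, 536 and 554 with PBS and 411, 532, 485, 505 and 497 with anti-IgD. No contrast was called for the probe set used (with vehicle, log2 fold change 0.045, 95% interval -0.14 to 0.23, adjusted p = 0.71). A weaker probe set of Eif4ebp2 fell by 0.69 with vehicle (adjusted p = 0.041 over all probe sets), so the probe sets of this gene disagree. Eif4enif1, which carries eIF4E into the nucleus, was not called in any contrast.

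eIF5A relieves ribosomes that stall on difficult peptide bonds and takes part in initiation and termination. The Eif5a signal was 4212, 4322, 5096 and 6190 with PBS and 5291, 5746, 4035 and 5823 with anti-IgD in vehicle-treated mice. Under PF-303, Eif5a read 4481, 3689, 5078, 4386 and 3800 with PBS and 7041, 5500, 6736, 4970 and 4629 with anti-IgD. Groups overlapped in both arms. Eif5a rose 1.34-fold under PF-303 (log2 fold change 0.42, SE 0.14, adjusted p = 0.028), while its log2 fold change with vehicle was 0.078 (95% interval -0.26 to 0.41). The test of the difference did not separate these (adjusted p = 0.36), and without any 1 of 4 arrays (PF-303 with PBS replicates 2 and 5, PF-303 with anti-IgD replicates 1 and 3) the rise was not called. Nor was the Eif5a rise called with the position row as a block (0.44, adjusted p = 0.076) or with the high spike-in arrays left out (0.34, adjusted p = 0.054). Eif5a was higher in 5 of those 6 arrays than in the others of their groups, by a ratio of 1.29. With vehicle, Eif5a was called with the spike-in signal as a covariate (0.27, adjusted p = 0.021) and after quantile normalization (0.39, adjusted p = 2.6e-04). The mean of its probe sets was called there too (0.41, adjusted p = 0.0042). The second Eif5a probe set rose in both arms, by 0.75 with vehicle and 0.45 with PF-303, and was lower with PF-303 among stimulated samples (-0.47, adjusted p = 0.00034 over all probe sets).

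The Eif5a2 signal, from the more tissue-restricted paralogue, was 45.7, 50.5, 38.2 and 54.1 with PBS and 38.4, 52.7, 43.9 and 39.3 with anti-IgD in vehicle-treated mice. Under PF-303, Eif5a2 read 51.4, 52.7, 43.1, 32.9 and 55.9 with PBS and 53.3, 53.9, 35.3, 44.8 and 63.5 with anti-IgD. All groups overlapped and no contrast was called (with vehicle, log2 fold change -0.083, 95% interval -0.39 to 0.22, adjusted p = 0.68).

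None of the 6 elongation genes was called higher with anti-IgD, although Eef1d was under other settings. Eef1a1 encodes the factor that delivers aminoacyl-tRNA and is among the most abundant transcripts of most cells. The Eef1a1 signal was 5900, 6945, 12430 and 16160 with PBS and 6694, 7333, 5349 and 7124 with anti-IgD in vehicle-treated mice. Under PF-303, Eef1a1 read 7463, 5670, 16170, 13270 and 6130 with PBS and 13460, 7699, 14670, 9203 and 7036 with anti-IgD. The 6 highest values belong to the 6 arrays of high spike-in signal, at a mean of 2.08 times the others of their groups. No contrast was called (log2 fold change -0.53, 95% interval -1.22 to 0.16, adjusted p = 0.2 for anti-IgD with vehicle); without those arrays the log2 fold change was 0.039 (adjusted p = 0.85).

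**Figure D4:**
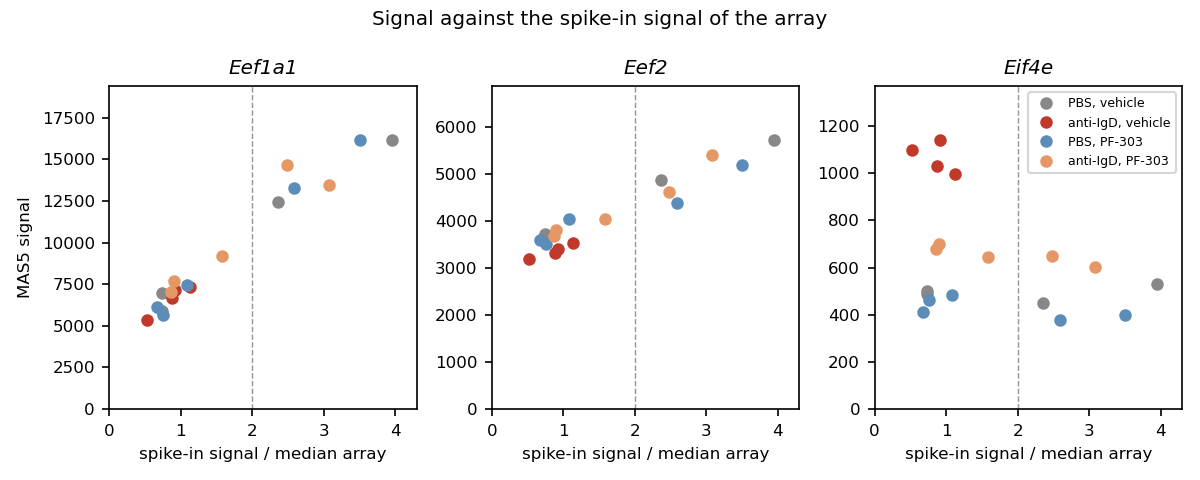
MAS5 signal of Eef1a1, Eef2 and Eif4e on each of the 18 arrays against the array's spike-in signal relative to the median array; colours mark the 4 groups and the dashed line marks a ratio of 2. Eef1a1 and Eef2 are highest on the 6 arrays right of the line (2.36 to 3.95), none of which belongs to the vehicle and anti-IgD group, while in Eif4e the anti-IgD samples lie above the PBS samples on both sides.

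Eef2, the translocase, shared this feature. The Eef2 signal was 3690, 3717, 4875 and 5717 with PBS and 3310, 3532, 3181 and 3408 with anti-IgD in vehicle-treated mice. Under PF-303, Eef2 read 4026, 3506, 5173, 4373 and 3600 with PBS and 5402, 3808, 4616, 4026 and 3685 with anti-IgD. Every stimulated vehicle sample lay below every unstimulated one and below every PF-303 sample except 1 at 3506. Eef2 fell to 0.760 times its level with anti-IgD and vehicle (log2 fold change -0.40, SE 0.15, adjusted p = 0.035). With the 6 high spike-in arrays left out, in which Eef2 was 1.34 times higher, the log2 fold change was -0.14 (adjusted p = 0.19). The call was also lost without any 1 of 5 arrays (PBS with vehicle replicates 3 and 4, anti-IgD with vehicle replicates 1, 4 and 5). Nor was the fall of Eef2 called with the position row as a block (-0.25, adjusted p = 0.43). With PF-303 the log2 fold change was 0.058 (95% interval -0.22 to 0.34).

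Eef2k encodes the kinase that phosphorylates eEF2 and slows elongation. The Eef2k signal was 113, 86.6, 97.8 and 60.7 with PBS and 64.4, 57.8, 66.2 and 62.0 with anti-IgD in vehicle-treated mice. Under PF-303, Eef2k read 107, 141, 77.1, 108 and 113 with PBS and 85.4, 104, 82.2, 105 and 101 with anti-IgD. The vehicle groups overlapped in 1 PBS sample at 60.7, and the stimulated groups with and without PF-303 were separate. Eef2k fell to 0.757 times its level with vehicle (log2 fold change -0.40, SE 0.15, adjusted p = 0.03), and stimulated cells held 1.41-fold more of it with PF-303 (log2 fold change 0.50, SE 0.14, adjusted p = 0.0094). The fall was not called without any 1 of 4 arrays (PBS with vehicle replicates 1 and 3, anti-IgD with vehicle replicates 2 and 5), at -0.40 to -0.30, nor with arrays shifted to one median (-0.34, adjusted p = 0.11) or quantile normalized (-0.31, adjusted p = 0.089). It was -0.55 with the high spike-in arrays left out (adjusted p = 0.0013). With the position row as a block neither the fall of Eef2k (-0.44, adjusted p = 0.15) nor its higher level with PF-303 (0.52, adjusted p = 0.13) was called. A second probe set gave -0.59 with vehicle and 0.55 for PF-303 in stimulated cells, both called.

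The other elongation genes were not called in any contrast with the filter, offset and probe sets given above. For Eef1b2 and Eef1d, subunits of the exchange factor that recharges eEF1A, the 95% intervals with vehicle were -0.46 to 0.20 and -0.069 to 0.32. The Eef1b2 signal was higher in all 6 arrays of high spike-in signal than in the other arrays of their groups, by a ratio of 1.32. Eef1d was called higher with vehicle by the mean of its probe sets (0.28, adjusted p = 0.028) and with the spike-in signal as a covariate (0.19, adjusted p = 0.041). With the high spike-in arrays left out it was called higher under PF-303 (0.22, adjusted p = 0.041). Eef1a2, the muscle and neuron form of eEF1A, was weak. The Eef1a2 signal was 58.2, 63.6, 51.5 and 55.0 with PBS and 41.0, 66.5, 48.6 and 55.1 with anti-IgD in vehicle-treated mice. Under PF-303, Eef1a2 read 42.3, 70.2, 91.1, 56.1 and 52.5 with PBS and 41.2, 83.5, 84.4, 30.1 and 62.6 with anti-IgD. All groups overlapped (with vehicle, log2 fold change -0.097, 95% interval -0.54 to 0.35, adjusted p = 0.74).

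The methyltransferases of elongation factors split. Eef1aknmt modifies the amino terminus and a lysine of eEF1A. The Eef1aknmt signal was 32.0, 12.4, 19.1 and 18.2 with PBS and 53.1, 39.9, 58.8 and 54.1 with anti-IgD in vehicle-treated mice. Under PF-303, Eef1aknmt read 16.7, 11.6, 2.09, 11.0 and 15.9 with PBS and 49.3, 25.5, 38.9, 30.5 and 38.2 with anti-IgD. Stimulated samples exceeded unstimulated ones in both arms. The rise was 1.88-fold with vehicle (log2 fold change 0.91, SE 0.19, adjusted p = 4.4e-04) and 1.93-fold with PF-303 (log2 fold change 0.95, SE 0.17, adjusted p = 1.5e-04). These signals are near the filter level, so the size depends on the offset: with an offset of 1 the log2 fold changes were 1.36 and 1.77, and with 64 they were 0.46 and 0.41, all called. Its other probe sets rose by 0.62 and 0.54 with vehicle, both called. Under PF-303 they gave 0.52 and 0.23, the latter not called (adjusted p = 0.13 over all probe sets). Both were lower with PF-303 in stimulated cells (-0.44 and -0.37, adjusted p = 0.023 for each). The set used gave -0.37 there (adjusted p = 0.13), and the mean of the probe sets -0.39 (adjusted p = 0.008).

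Eef1akmt2, a lysine methyltransferase of eEF1A, moved the other way. The Eef1akmt2 signal was 125, 135, 143 and 147 with PBS and 114, 114, 90.7 and 88.1 with anti-IgD in vehicle-treated mice. Under PF-303, Eef1akmt2 read 128, 122, 178, 187 and 156 with PBS and 118, 118, 140.4, 127 and 113 with anti-IgD. The vehicle groups were separate and the PF-303 groups overlapped. Eef1akmt2 fell to 0.764 times its level with vehicle (log2 fold change -0.39, SE 0.12, adjusted p = 0.01) and to 0.825 times with PF-303 (log2 fold change -0.28, SE 0.11, adjusted p = 0.05). The second call was at the threshold: it was lost without any 1 of 13 arrays (adjusted p 0.051 to 0.15) and with either other scaling, and with the high spike-in arrays left out the value was -0.16 (adjusted p = 0.31). With the position row as a block the Eef1akmt2 fall was called neither with vehicle (-0.40, adjusted p = 0.066) nor with PF-303 (-0.17, adjusted p = 0.37). After quantile normalization it was not called with vehicle (-0.29, adjusted p = 0.061). Eef1akmt1 was not called in any contrast.

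Many members carry several probe sets, and these gave a check within the same arrays. Of the 48 genes, 31 had at least 2 probe sets above the filter, and none of them had probe sets called in opposite directions in any of the 5 contrasts. In 11 of the 31 with anti-IgD and vehicle, some probe sets were called and others were not. The same held for 13 with PF-303 in stimulated cells, 11 with anti-IgD under PF-303 and 7 for the difference between responses. Over the 13 risers with vehicle that had other probe sets, 22 of the 30 other probe sets were also higher, 0 were lower and 8 were not called. For the genes lower with PF-303 in stimulated cells the counts were 13 lower, 0 higher and 3 not called among 16 other probe sets of 7 genes. Fewer were called elsewhere: for the genes that fell with vehicle, 2 of 5 other probe sets were lower and 3 were not called. For the 4 genes whose responses differed, 2 of 6 other probe sets were called and 4 were not.

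**Figure D5:**
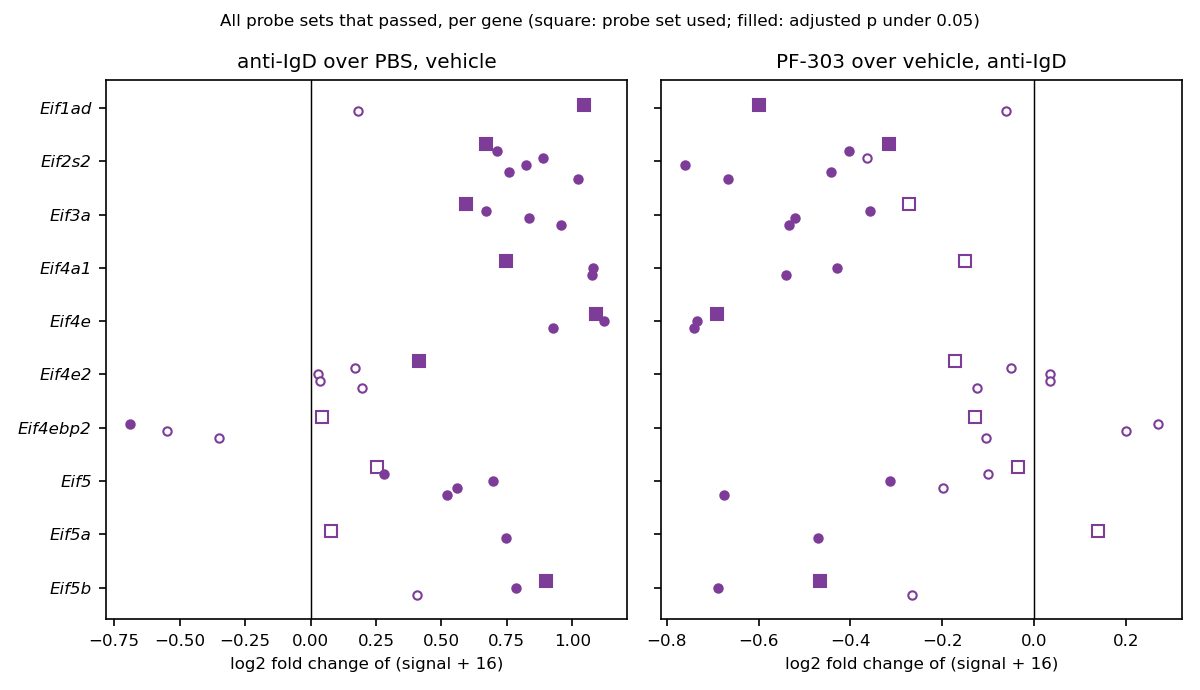
Log2 fold change of each probe set above the filter for 10 genes, for anti-IgD over PBS with vehicle (left) and PF-303 over vehicle with anti-IgD (right); squares are the probe sets used, and filled marks have an adjusted p under 0.05 over all probe sets tested. The probe sets of Eif4e lie together, and those of Eif2s2 run from 0.67 to 1.02 on the left and from -0.32 to -0.76 on the right. Those of Eif1ad, Eif4ebp2, Eif5 and Eif5a spread, with the used Eif5a set at 0.078 and the other at 0.75 on the left.

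A list of 42 genes outside the families covered eIF2 kinases and phosphatase subunits, poly(A)-binding proteins, eIF4E kinases, the mTOR pathway, enzymes that modify eIF5A and eEF2, release and recycling factors and others; 40 passed the filter. The alternative settings and the fits without 1 array were read for the 48 genes only, so the calls of these 40 were not checked under them. Over all genes tested, the difference between responses was called for 740 higher and 346 lower. With the position row as a block it was called for 189 and 102. After anti-IgD with vehicle 19 of the 40 rose and 8 fell, where 17.4% of all genes tested rose and 30.6% fell. Those with the largest rise were Eef1e1, a scaffold protein of the tRNA synthetase complex (1.22), Ppp1r15a, which directs dephosphorylation of eIF2 (1.19), Etf1, the release factor (1.10), Larp1, which binds mRNAs of the translation machinery (0.97), and Abce1, which recycles ribosomes (0.82), as log2 fold changes with adjusted p of 5.9e-10, 3.6e-08, 1.8e-11, 2.2e-07 and 7.8e-08. The largest falls were in Mknk2 and Mknk1, the kinases of eIF4E (-0.82 and -0.60), Eif2ak3, the eIF2 kinase of the endoplasmic reticulum (-0.77), Eif2d (-0.49) and Rptor, a subunit of the mTOR complex (-0.49). Eif4e RNA thus rose in the comparison in which the RNA of its kinases fell.

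With PF-303 in stimulated mice 11 of these 40 genes were lower and 5 higher, against 10.4% and 19.8% of all genes tested. Ppp1r15a was lower at a log2 difference of -1.38 (SE 0.11, adjusted p = 1.5e-08), followed by Eef1e1 (-0.67), Pabpc4 (-0.58), Etf1 (-0.56) and Larp1 (-0.53). Mknk2 (0.58), Eif2ak3 (0.47) and Rptor (0.40) were higher. In unstimulated mice none of the 40 was called, and anti-IgD under PF-303 raised 14 and lowered 5 (14.7% and 19.1% over all genes). The responses differed for 8 genes, 5 with a lower value under PF-303 (Ppp1r15a, Eef1e1, Eif2a, Etf1 and Pabpc4) and 3 with a higher one (Rptor, Impact and Eif2ak3), against 3.12% and 6.66% of all genes. The Ppp1r15a response was 1.19 with vehicle and 0.27 with PF-303, a difference of -0.92 (adjusted p = 0.0011), while the Larp1 difference was -0.15 (adjusted p = 0.58).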

How the data were processed

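RNA from CD23+ splenic B lymphocytes (150 ng per sample) was hybridised to 18 Affymetrix mouse arrays. Per the submitters' processing notes, the authors made the deposited signal intensity values with MAS5, 1 value per probe set (45101 probe sets); its version is not given in the sources used here. The 2% trimmed means of the deposited signals were 99.96 to 99.97 on every array, so arrays share a scale and true shifts of all genes cannot be seen. Probe sets were named through GEO's platform annotation: 34945 had 1 gene symbol, 932 several and 9160 none, besides 64 controls. Groups were taken from the labels.

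Signals were taken as log2(signal + 16). A probe set was kept above 15.2 in at least 4 arrays, 1 per gene with the highest mean, and 11104 genes were fitted with limma 3.58.1 (R 4.3.3) over the 4 groups with a mean-dependent prior variance and Benjamini-Hochberg adjustment. Tests covered 5 contrasts: the anti-IgD response in either arm, the effect of PF-303 with and without stimulation, and the difference between the responses. Probe set values use the same fit over all probe sets that passed. The procedure was tested on simulated data. Alternatives were 11 settings and leaving out each of the 18 arrays.

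Genes given sample by sample were, with vehicle, the called members of largest change (at most 10 in each direction), in the other contrasts at most 5, and sets of paralogues; of the genes outside the families, at most 5 called ones in each direction and contrast. Members and lists were chosen with earlier results of these data known. Arrays give no counts, so the number of arrays limits the precision.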

Additional observations from a re-analysis of the deposited data

Results flagged for a closer look

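Over the 27 genes given sample by sample, 108 groups of 4 or 5 samples were searched for a sample far from its group, and 4 were found; chance alone gives about 1 in 20 groups. In the PF-303 and anti-IgD group, replicate 1 was highest for both Eif2s3x (2229) and Eif5b (517.8); this array is among those of high spike-in signal. In the vehicle and PBS group, replicate 1 was lowest for Eif4a2 (3316) and replicate 3 was highest for Eif4e3 (150.1).

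The response to anti-IgD differed between the PF-303 and vehicle arms for 4 genes by limma's test of the difference. The log2 difference was -0.57 for Eif1a, -0.73 for Eif1ad, -0.34 for Eif1ax and -0.49 for Eif4e.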

How the results depend on the processing

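Of 58 called results of single genes, 37 were called under all 11 alternatives and without any single array. The 2 of Eef1aknmt could not be tested where a signal above the median was asked of all arrays. With the position row as a block 15 were lost, and 7 were lost without at least 1 array. Members lower with anti-IgD and vehicle numbered 3 without a filter and 0 with the position row as a block, and 3 to 6 when 1 array was left out. Members higher with PF-303 in stimulated mice numbered 4 with arrays shifted to one median, 0 with the position row as a block and 4 with the high spike-in arrays left out. In unstimulated mice 1 member was lower after quantile normalization and 1 with the spike-in signal as a covariate. Members lower with anti-IgD under PF-303 numbered 1 with the high spike-in arrays left out. With the mean of all probe sets the difference between responses was called for 1 member higher and 7 lower. Eif5a turned direction after quantile normalization, with PF-303 in stimulated mice at -0.275 (adjusted p = 0.0069). The cause of these changes was not tested. Same-numbered samples did not deviate together (24 pairs, r from -0.161 to 0.225, median -0.003), so the numbers were not taken to pair the samples. With the replicate block, members higher and lower numbered 20 and 4 (anti-IgD, vehicle), 2 and 9 (PF-303, stimulated), 0 and 0 (PF-303, unstimulated), 16 and 3 (anti-IgD, PF-303) and 0 and 6 (difference); Eef2 with anti-IgD and vehicle (-0.31, adjusted p = 0.088) and Eif3a with PF-303 in stimulated mice (-0.26, adjusted p = 0.08) lost their calls. The median standard error was 0.12 to 0.17 on the log2 scale, so small changes could pass undetected.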
